A study of Rattus norvegicus with 24 samples.

Results

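The genes described here are 50 genes of the cell division cycle and of DNA replication, measured in the left ventricle of rats given metformin or its vehicle. They were chosen by name, and each was read from the array feature (transcript cluster) whose platform annotation gives that gene as its only symbol, or from the brightest such feature where a gene had several. All 50 were found among 22037 genes with such a feature. A total of 18 belong to entry into and progress through DNA synthesis (G1/S genes) and 32 to the later phases, mitosis and cytokinesis (G2/M genes). Testing required a value over the median of the same array on 4 or more of the 24 arrays. This held for 48 of the 50, which were 17 G1/S and 31 G2/M genes, and for 16031 genes in all. Gins1, a subunit of the replicative helicase complex, lay above the median on 0 arrays, and Cdca8, a subunit of the chromosomal passenger complex, on 3, so neither was tested.

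The animals were male RccHan Wistar rats, an outbred stock, aged 7-8 weeks. They were gavaged on 1, 3 or 14 consecutive days with 800 mg/kg metformin, an oral drug for type 2 diabetes, or, as controls, with the vehicle of ethanol, Kolliphor HS 15 (a non-ionic solubiliser) and tap water. RNA from the apex of the left ventricle was hybridised to 1-colour Affymetrix arrays as biological replicates, and the 6 groups (metformin and control on each of the 3 days) hold 4 arrays each. Each group began with 5 animals, and arrays of 4 are used here. The labels name no batch, and 4 arrays a group limit the precision. Defining genes of ventricular muscle stood high in every array, with Tnnt2 between 17.55 and 17.59 and Tnni3 between 13.38 and 13.44 on the log2 scale. Others varied more, such as Ryr2, from 17.20 to 17.62. The mean of 9 cardiomyocyte markers ran from 16.89 to 17.49.

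Cells that are about to divide first license their replication origins with the MCM helicase, then switch on cyclin E, E2F1 targets and the enzymes that make deoxynucleotides, and later build up cyclin A and B with CDK1, the mitotic kinases and the spindle proteins. Adult cardiomyocytes rarely divide, so transcripts of the cycle in the adult ventricle are usually ascribed in large part to other cells such as endothelial cells, fibroblasts and leukocytes. A bulk extract cannot tell fewer cycling cells from less RNA per cycling cell. Genes of S phase commonly carry sites for E2F factors near their start. Genes of G2 and M commonly carry CHR elements (cell cycle genes homology region), which the MuvB complexes bind, together with CCAAT boxes, which NF-Y binds.

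The promoters of the members were searched for these motifs, which use no expression value. RefSeq promoters (assembly GRCr8, 250 bases before to 50 after the annotated start) were found for 39 of the 50 members, 13 G1/S and 26 G2/M, and for 27457 genes in all. The members not matched were E2f1, Ccne2, Cdc6, Mcm4, Rrm2, Ccna2, Aurkb, Tpx2, Ube2c, Pbk and Foxm1. The CHR was searched as TTTGAA or TTTAAA, the CCAAT box as CCAAT, and the E2F site as TTTCCCGC, TTTGGCGC, TTTCGCGC or TTTGCCGC, each on both strands. A CHR was found in 25 of the 26 G2/M promoters (96.2%), in 2 of the 13 G1/S promoters (15.4%) and in 27.9% of all promoters. A CCAAT box was found in 19 of the 26 (73.1%), in 8 of the 13 (61.5%) and in 37.7% of all. A CHR together with a CCAAT box was found in 19 of the 26 G2/M promoters (73.1%), in 0 of the 13 G1/S promoters and in 11.1% of all. The order was turned round for the E2F site, which was found in 8 of the 13 G1/S promoters (61.5%), in 1 of the 26 G2/M promoters (3.85%, Cdk1) and in 2.25% of all promoters. A match is a description of the letters and not a measured binding site.

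A total of 6 promoters are printed as examples of the contrast between the lists, chosen with the calls described below known. Ccnb2 (chr8:79981609-79981908, minus strand), Cdc20 (chr5:137255750-137256049, minus strand), Prc1 (chr1:143659231-143659530, plus strand) and Cenpe (chr2:226310807-226311106, plus strand) are G2/M genes whose levels fell by day 14, as described below. Mcm5 (chr19:13488563-13488862, plus strand) and Mcm6 (chr13:42404303-42404602, minus strand) are G1/S genes with no such call. Each is written 5′ to 3′ on the strand of its gene, and capitals mark every match to the 3 motifs. E2F words on opposite strands share bases in Mcm5 and Mcm6 and are there written as 1 run of capitals. Different motifs share bases in Cdca8, Mki67 and Mcm7, which are not printed.
Ccnb2: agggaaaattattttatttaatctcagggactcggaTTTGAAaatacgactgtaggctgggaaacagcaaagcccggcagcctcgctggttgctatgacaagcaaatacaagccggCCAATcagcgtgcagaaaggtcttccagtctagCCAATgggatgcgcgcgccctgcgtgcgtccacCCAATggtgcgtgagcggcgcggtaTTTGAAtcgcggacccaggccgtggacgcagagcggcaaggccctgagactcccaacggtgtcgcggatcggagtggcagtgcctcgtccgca
Cdc20: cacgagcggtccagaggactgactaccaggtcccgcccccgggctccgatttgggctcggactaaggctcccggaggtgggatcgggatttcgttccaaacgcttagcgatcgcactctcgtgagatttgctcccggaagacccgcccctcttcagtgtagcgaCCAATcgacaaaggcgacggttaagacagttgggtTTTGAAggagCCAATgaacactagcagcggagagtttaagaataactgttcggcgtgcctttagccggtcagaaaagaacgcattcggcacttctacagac
Prc1: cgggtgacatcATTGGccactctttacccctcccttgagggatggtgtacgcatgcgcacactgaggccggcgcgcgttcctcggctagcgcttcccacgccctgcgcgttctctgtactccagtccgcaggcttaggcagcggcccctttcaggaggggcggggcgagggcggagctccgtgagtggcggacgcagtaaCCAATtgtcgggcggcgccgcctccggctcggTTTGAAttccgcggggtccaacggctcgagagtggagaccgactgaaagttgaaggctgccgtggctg
Cenpe: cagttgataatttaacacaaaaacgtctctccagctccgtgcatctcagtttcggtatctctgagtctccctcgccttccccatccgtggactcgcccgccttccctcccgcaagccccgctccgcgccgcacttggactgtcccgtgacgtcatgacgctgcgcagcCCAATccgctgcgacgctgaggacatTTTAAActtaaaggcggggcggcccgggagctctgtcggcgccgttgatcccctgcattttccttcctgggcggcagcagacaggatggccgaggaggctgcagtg
Mcm5: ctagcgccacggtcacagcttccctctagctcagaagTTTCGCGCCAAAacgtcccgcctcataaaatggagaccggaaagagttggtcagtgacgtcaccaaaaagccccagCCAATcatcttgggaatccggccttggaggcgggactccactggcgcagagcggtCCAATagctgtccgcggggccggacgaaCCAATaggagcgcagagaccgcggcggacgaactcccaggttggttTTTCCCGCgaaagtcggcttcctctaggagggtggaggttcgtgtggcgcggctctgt
Mcm6: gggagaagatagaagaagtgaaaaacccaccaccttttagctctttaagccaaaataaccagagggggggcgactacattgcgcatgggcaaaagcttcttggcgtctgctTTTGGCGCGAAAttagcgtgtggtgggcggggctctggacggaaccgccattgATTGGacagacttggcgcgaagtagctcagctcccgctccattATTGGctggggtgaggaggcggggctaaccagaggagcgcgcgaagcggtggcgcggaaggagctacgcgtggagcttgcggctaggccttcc
In Ccnb2, counted from the start, CCAAT boxes began at -134, -101 and -68 and CHRs at -214 and -43. In Cdc20, CCAAT boxes began at -86 and -41, with a CHR at -51. In Mcm5 and Mcm6 the capitals are E2F words and CCAAT boxes, with no CHR. Other members do not follow these examples. Aurka carries a CHR and did not fall, and Anln fell and carries no CCAAT box. The G1/S genes Mcm2 and Ccne1 carry a CHR. Whether the motifs go with the change in level was not tested.

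All differences below are on the log2 scale, from 1 limma fit to the 24 arrays with 4 arrays per group, with calls made at p under 0.05 after Benjamini-Hochberg adjustment over the 16031 genes. In these hearts 30 of the 31 G2/M genes had a lower mean on day 14 of dosing than on day 1 over both arms, with a median difference of -0.44 with metformin and -0.36 with vehicle. Over both arms, 9 of the 48 genes fell between these days, 8 of 31 G2/M genes and 1 of 17 G1/S genes, against 2.6% of all genes called and 0.63% called lower. The MCM helicase genes were among those not called. Most fibroblast, endothelial and erythroid markers had lower means as well, while macrophage and T cell lists stayed near their day 1 means. With the fibroblast level in each heart as a covariate 0 of 48 members were called, and with the erythroid level 2. The endothelial level was not used as a covariate. Metformin against control gave 0 called members on any single day. Taken over the 3 days, Ccne2, the cyclin that activates CDK2 at the start of S phase, was the 1 member of 48 called, with a lower level under metformin, against 4.42% of all genes called and 3.77% called lower. This share is no higher than the background, and the call was lost under 22 of 37 alternatives.

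**Figure D1:**
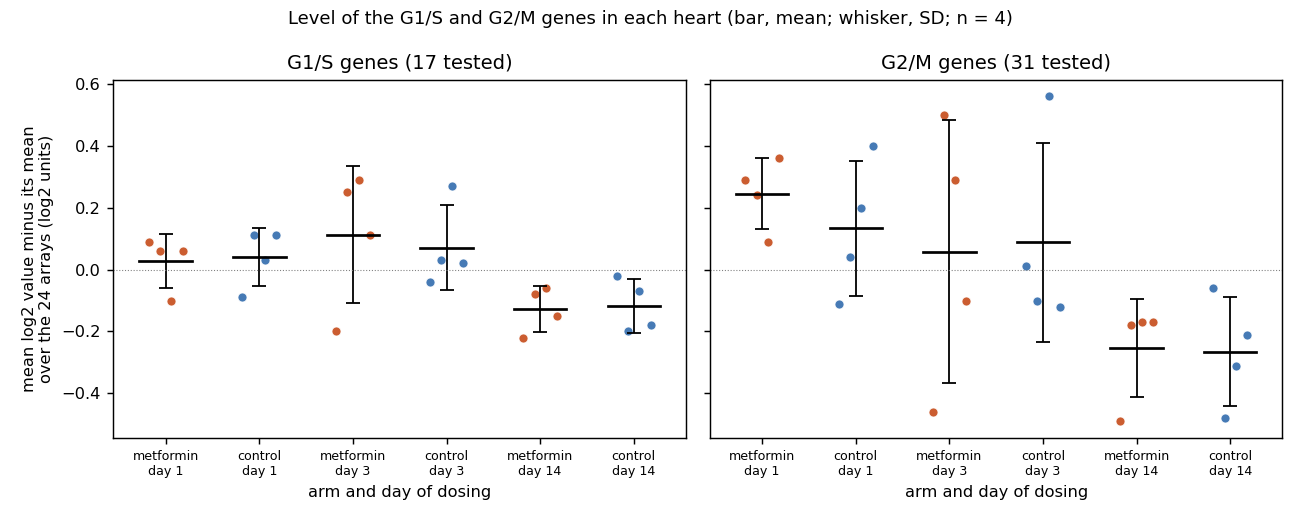
Mean level of the G1/S genes (left) and of the G2/M genes (right) in each heart, as the log2 value minus the gene's mean over the 24 arrays, averaged over the tested genes; dots are hearts, bars are group means and whiskers are SD (n = 4). The G2/M level ran from -0.49 to -0.17 in metformin hearts and from -0.48 to -0.06 in control hearts on day 14, and from 0.09 to 0.36 in metformin hearts and -0.11 to 0.40 in control hearts on day 1.

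The comparison of days over both arms (day 14 minus day 1, the mean of the metformin and the control difference, 8 arrays a day) was chosen after the values had been seen. All 9 called members were lower. At an unadjusted p under 0.05, 32 of 48 members were lower, 27 G2/M and 5 G1/S genes, against 6.43% of all genes. The median difference was -0.45 over the 31 G2/M genes and -0.12 over the 17 G1/S genes, against 0.00 over all genes tested. The array values of the days did not overlap for 4 members, Ube2c, Cdc20, Anln and Prc1, against 0.187% of all genes that were lower without overlap. Day of dosing, number of doses and age of the animals rise together here and cannot be told apart.

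Among the genes of the anaphase-promoting complex, which ends mitosis by marking cyclin B and securin for breakdown, the clearest was Ube2c, its ubiquitin-conjugating enzyme. On day 14 Ube2c stood at 6.08, 6.44, 6.04 and 6.35 in metformin hearts and at 6.26, 6.10, 6.24 and 5.99 in control hearts. On day 1 it stood at 6.67, 6.45, 6.69 and 6.63 in metformin hearts and at 6.53, 6.53, 6.77 and 6.80 in control hearts. The highest day 14 value lay just under the lowest day 1 value, both in metformin replicate 2. The difference was -0.45 (1.36-fold lower, SE 0.09, adjusted p = 0.0123). Cdc20, an activator of the same complex, stood at 5.01, 4.98, 4.97 and 5.14 in metformin hearts and at 5.06, 4.79, 5.13 and 5.06 in control hearts on day 14. Levels on day 1 were 5.19, 5.39, 5.41 and 5.46 in metformin hearts and 5.20, 5.22, 5.32 and 5.52 in control hearts. All 8 hearts of day 14 lay under all 8 hearts of day 1. Cdc20 fell by 0.32 (difference -0.32, 1.25-fold lower, SE 0.07, adjusted p = 0.0177).

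Mki67 (the proliferation antigen Ki-67, which coats mitotic chromosomes) had the largest difference of the 48 members and did not pass. On day 14 it stood at 7.09, 8.14, 8.34 and 8.21 in metformin hearts and at 8.55, 7.46, 7.93 and 8.29 in control hearts. Day 1 gave 9.27, 9.21, 8.94 and 9.56 in metformin hearts and 8.31, 8.88, 9.31 and 9.72 in control hearts. The metformin days did not overlap, whereas control replicate 1 of day 14 lay above control replicate 1 of day 1. The difference was -1.15 (2.22-fold lower, SE 0.32, adjusted p = 0.0547), with the SD between hearts of a group as large as 1.08 (metformin, day 3). Top2a, the topoisomerase that untangles sister chromatids, stood at 6.09, 6.74, 6.74 and 6.70 in metformin hearts and at 7.05, 6.17, 6.44 and 6.68 in control hearts on day 14, against 7.54, 7.45, 7.12 and 7.74 in metformin hearts and 6.77, 7.23, 7.35 and 7.80 in control hearts on day 1. Again the metformin days did not overlap and the control days did. Top2a differed by -0.80 (SE 0.23, adjusted p = 0.0583).

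Of the B-type cyclins and Cdk1, the kinase they activate for entry into mitosis, only Ccnb2 was called. Ccnb2, a B-type cyclin, stood at 5.30, 6.13, 5.58 and 5.22 in metformin hearts and at 6.16, 5.28, 5.52 and 5.32 in control hearts on day 14. On day 1 it stood at 6.15, 6.48, 6.09 and 6.48 in metformin hearts and at 6.02, 6.44, 6.35 and 6.78 in control hearts. In each arm 1 heart of day 14 reached the range of day 1. Ccnb2 fell by 0.78 (difference -0.78, 1.72-fold lower, SE 0.20, adjusted p = 0.0396). The call was lost under 18 of 29 alternatives, with adjusted p from 0.0227 to 0.216. These values come from the brighter of 2 features of the gene. The identifier of that feature is numbered for chromosome 1, whereas the gene lies on chromosome 8. Which locus it measures was not tested. The second feature, numbered for chromosome 8, gave a smaller difference of -0.46 (SE 0.12, adjusted p = 0.0399). Cdk1 stood at 4.56, 5.00, 5.20 and 5.01 in metformin hearts and at 5.12, 4.85, 5.02 and 5.04 in control hearts on day 14. Levels on day 1 were 5.54, 5.49, 5.37 and 5.68 in metformin hearts and 5.14, 5.31, 5.42 and 5.59 in control hearts. Its difference was -0.47 (SE 0.13, adjusted p = 0.0517), just short of a call. Ccna2, cyclin A2, which acts with CDK2 in S phase and CDK1 in G2, stood at 5.97, 6.56, 6.51 and 6.34 in metformin hearts and at 6.71, 5.79, 6.41 and 6.62 in control hearts on day 14, against 7.01, 7.08, 6.78 and 7.13 in metformin hearts and 6.44, 6.83, 7.02 and 7.29 in control hearts on day 1. The metformin days did not overlap, and control replicates 1 and 4 of day 14 lay above control replicate 1 of day 1. Ccna2 differed by -0.58 (SE 0.19, adjusted p = 0.12) and Ccnb1, the other B-type cyclin of the list, by -0.29 (SE 0.11, adjusted p = 0.168).

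Of the kinetochore genes, Cenpf and Cenpe were called. Cenpf, a protein of the outer kinetochore in G2 and M, stood at 4.80, 5.33, 5.29 and 5.26 in metformin hearts and at 5.55, 4.88, 4.95 and 5.48 in control hearts on day 14. Its day 1 values were 6.03, 5.95, 5.71 and 5.95 in metformin hearts and 5.47, 5.66, 5.76 and 6.15 in control hearts. All metformin hearts of day 14 lay under all metformin hearts of day 1, and in the controls replicates 1 and 4 of day 14 lay just above replicate 1 of day 1. Cenpf fell by 0.64 (difference -0.64, SE 0.15, adjusted p = 0.0223). Cenpe, the kinesin that carries chromosomes to the spindle equator, stood at 5.22, 5.57, 5.70 and 5.64 in metformin hearts and at 5.87, 5.29, 5.48 and 5.75 in control hearts on day 14. On day 1 it stood at 6.34, 6.27, 6.05 and 6.30 in metformin hearts and at 5.82, 5.98, 6.17 and 6.37 in control hearts. Its metformin days did not overlap, and control replicate 1 of day 14 lay above control replicate 1 of day 1. Cenpe fell by 0.60 (difference -0.60, SE 0.14, adjusted p = 0.0248). The NDC80 complex, which ties kinetochores to microtubules, had 0 called members, with differences of -0.45 for Nuf2 (adjusted p = 0.0504), -0.38 for Ndc80 (adjusted p = 0.159) and -0.20 for Spc25 (adjusted p = 0.326).

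The spindle midzone and cytokinesis genes gave 3 calls. Prc1, which bundles the microtubules of the midzone, stood at 5.59, 6.14, 6.27 and 6.20 in metformin hearts and at 6.30, 5.91, 6.04 and 6.12 in control hearts on day 14. Levels on day 1 were 6.99, 6.98, 6.71 and 7.22 in metformin hearts and 6.35, 6.50, 6.91 and 7.26 in control hearts. The days did not overlap in either arm. Prc1 fell by 0.79 (difference -0.79, 1.73-fold lower, SE 0.21, adjusted p = 0.046). This call was lost under 19 of 29 alternatives, with adjusted p from 0.00517 to 0.267. Ect2, which activates RhoA for the contractile ring, stood at 5.35, 5.65, 5.91 and 5.75 in metformin hearts and at 5.96, 5.38, 5.50 and 5.85 in control hearts on day 14. Day 1 gave 6.38, 6.32, 6.16 and 6.51 in metformin hearts and 5.93, 6.12, 6.25 and 6.50 in control hearts. Control replicate 1 of day 14 lay above control replicate 1 of day 1, and the other hearts kept apart by day. Ect2 fell by 0.60 (difference -0.60, SE 0.14, adjusted p = 0.0238). For Cenpf, Cenpe and Ect2 the call was lost under 8 of 29 alternatives each. Anln, the anillin scaffold of that ring, stood at 5.34, 5.74, 5.78 and 5.79 in metformin hearts and at 5.83, 5.47, 5.47 and 5.63 in control hearts on day 14. On day 1 it stood at 6.30, 6.21, 6.05 and 6.20 in metformin hearts and at 5.97, 5.85, 6.17 and 6.16 in control hearts. The days did not overlap in either arm. Anln fell by 0.49 (difference -0.49, SE 0.11, adjusted p = 0.0184). The midzone kinesins Kif20a and Kif23 differed by -0.46 and -0.49 (adjusted p = 0.0571 each), and Kif11, which pushes the spindle poles apart, by -0.53 (adjusted p = 0.11).

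Mitotic kinases other than Cdk1 gave 0 calls of 8. Their differences were -0.39 for Plk1, -0.37 for Ttk, -0.37 for Pbk, -0.31 for Bub1, -0.29 for Melk, -0.22 for Bub1b and -0.20 for Aurkb, with adjusted p from 0.0897 (Bub1b) to 0.42 (Aurkb). Aurka, the kinase of the spindle poles, stood apart at 0.01 (SE 0.06, adjusted p = 0.934) and was the 1 G2/M gene without a lower mean on day 14. It ran from 5.52 to 5.67 in metformin hearts and from 5.48 to 5.52 in control hearts on day 14, and from 5.44 to 5.75 in metformin hearts and 5.40 to 5.57 in control hearts on day 1. Its activator Tpx2 differed by -0.49 (adjusted p = 0.081), and Foxm1, the transcription factor that drives many G2/M genes, by -0.14 (SE 0.07, adjusted p = 0.328). Birc5, survivin of the chromosomal passenger complex, differed by -0.42 (adjusted p = 0.0657) and Nusap1, a spindle protein, by -0.23 (adjusted p = 0.296).

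**Figure D2:**
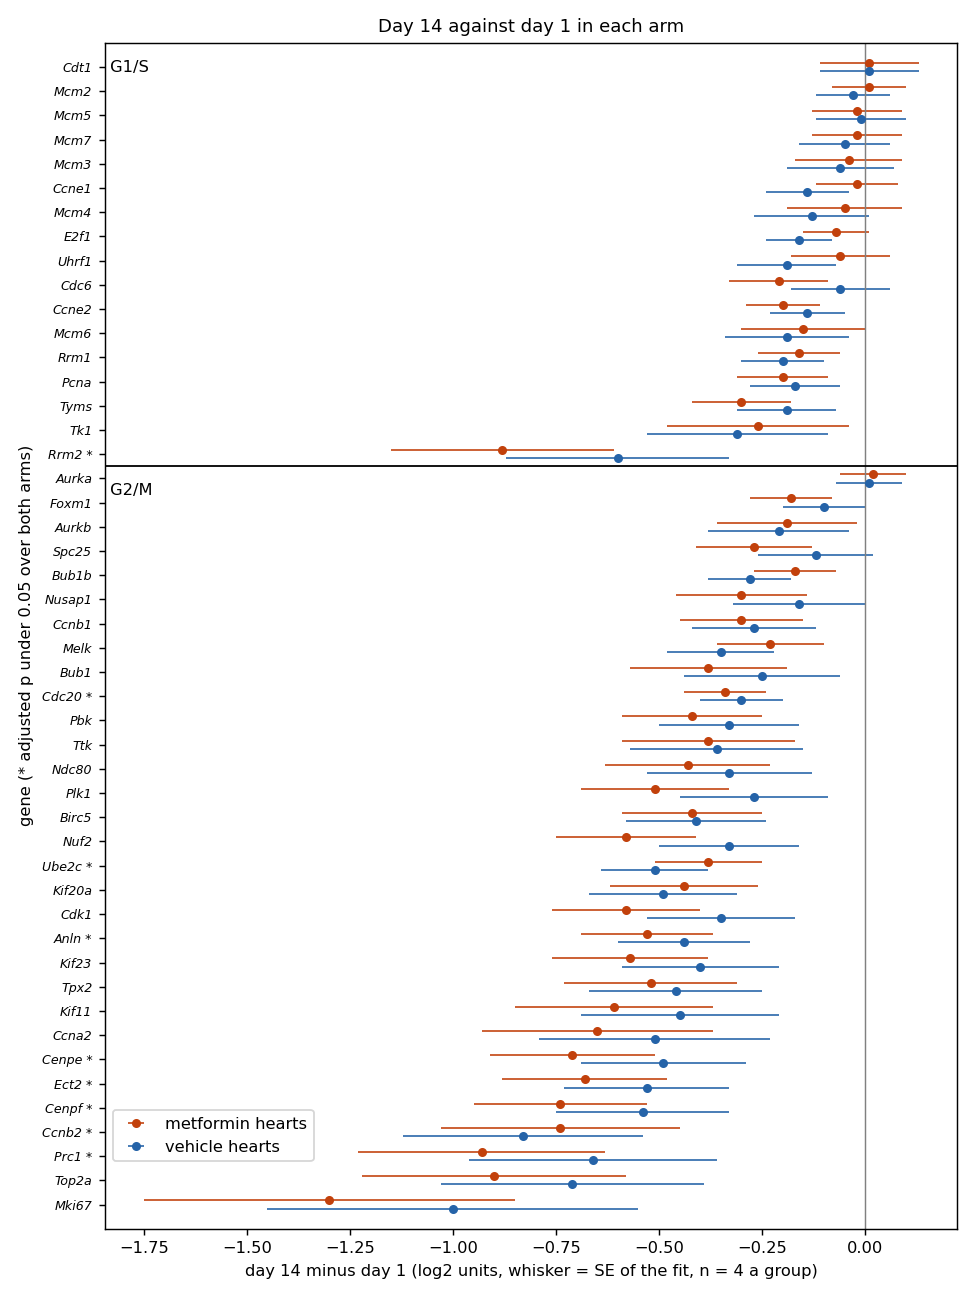
Difference between day 14 and day 1 (log2 units, horizontal axis) of the 48 tested genes in metformin hearts and in vehicle hearts; whiskers are the SE of the fit and asterisks mark the 9 genes called over both arms. The G2/M genes lay between -1.30 and 0.02 in metformin hearts and between -1.0 and 0.01 in vehicle hearts. Of the MCM genes, Mcm6 lay furthest below 0 in both arms, within the range of the G2/M genes.

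The largest difference among the G1/S genes was in nucleotide supply. Rrm2, the small subunit of ribonucleotide reductase that is made in S phase, stood at 5.36, 5.86, 5.90 and 5.83 in metformin hearts and at 6.09, 5.60, 5.85 and 5.78 in control hearts on day 14. Levels on day 1 were 7.01, 6.63, 5.97 and 6.86 in metformin hearts and 6.19, 6.33, 6.38 and 6.82 in control hearts. The days did not overlap within either arm. Rrm2 fell by 0.74 (difference -0.74, 1.67-fold lower, SE 0.19, adjusted p = 0.0372). This call was lost under 17 of 29 alternatives, with adjusted p from 0.0105 to 0.225. Rrm1, the large subunit, which is present through the cycle, differed by -0.18 (adjusted p = 0.18), Tyms, thymidylate synthase, by -0.25 (adjusted p = 0.146) and Tk1, the thymidine kinase of S phase, by -0.29 (adjusted p = 0.363). Tk1 ran from 5.79 to 6.24 in metformin hearts and from 5.81 to 6.44 in control hearts on day 14, against 5.92 to 6.49 in metformin hearts and 6.26 to 6.80 in control hearts on day 1, with overlap of the days in both arms.

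The genes that license and unwind origins showed no call. Mcm2, Mcm3, Mcm4, Mcm5, Mcm6 and Mcm7, the 6 subunits of the helicase, had differences between -0.17 (Mcm6) and -0.01 (Mcm2), with adjusted p from 0.449 to 0.951. Mcm2 stood at 6.42, 6.57, 6.56 and 6.48 in metformin hearts and at 6.61, 6.47, 6.53 and 6.44 in control hearts on day 14, against 6.55, 6.50, 6.43 and 6.50 in metformin hearts and 6.39, 6.67, 6.54 and 6.58 in control hearts on day 1. The days overlapped in both arms, and the SE of the difference was 0.06. Mcm5 stood at 5.52, 5.68, 5.80 and 5.51 in metformin hearts and at 5.82, 5.48, 5.39 and 5.63 in control hearts on day 14, against 5.67, 5.59, 5.68 and 5.66 in metformin hearts and 5.49, 5.58, 5.59 and 5.70 in control hearts on day 1. The licensing factors Cdt1 and Cdc6 differed by 0.01 (adjusted p = 0.96) and -0.14 (adjusted p = 0.458). Both were dim, at means of 4.84 and 4.72, where the array medians ran from 4.68 to 4.95. Cdt1 lay above the median on 15 arrays and Cdc6 on 8. E2f1 was near it as well, at 4.93. Pcna, the sliding clamp, stood at 10.33, 10.42, 10.37 and 10.25 in metformin hearts and at 10.53, 10.39, 10.47 and 10.26 in control hearts on day 14, against 10.53, 10.58, 10.45 and 10.63 in metformin hearts and 10.42, 10.68, 10.62 and 10.61 in control hearts on day 1. It differed by -0.19 (SE 0.08, adjusted p = 0.244), and Uhrf1, which carries DNA methylation across replication, by -0.12 (adjusted p = 0.522). E2f1 differed by -0.12 (adjusted p = 0.332), Ccne1 by -0.08 (adjusted p = 0.602) and Ccne2 by -0.17 (adjusted p = 0.157). Whether G1/S and G2/M genes differ in their change was not tested.

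**Figure D3:**
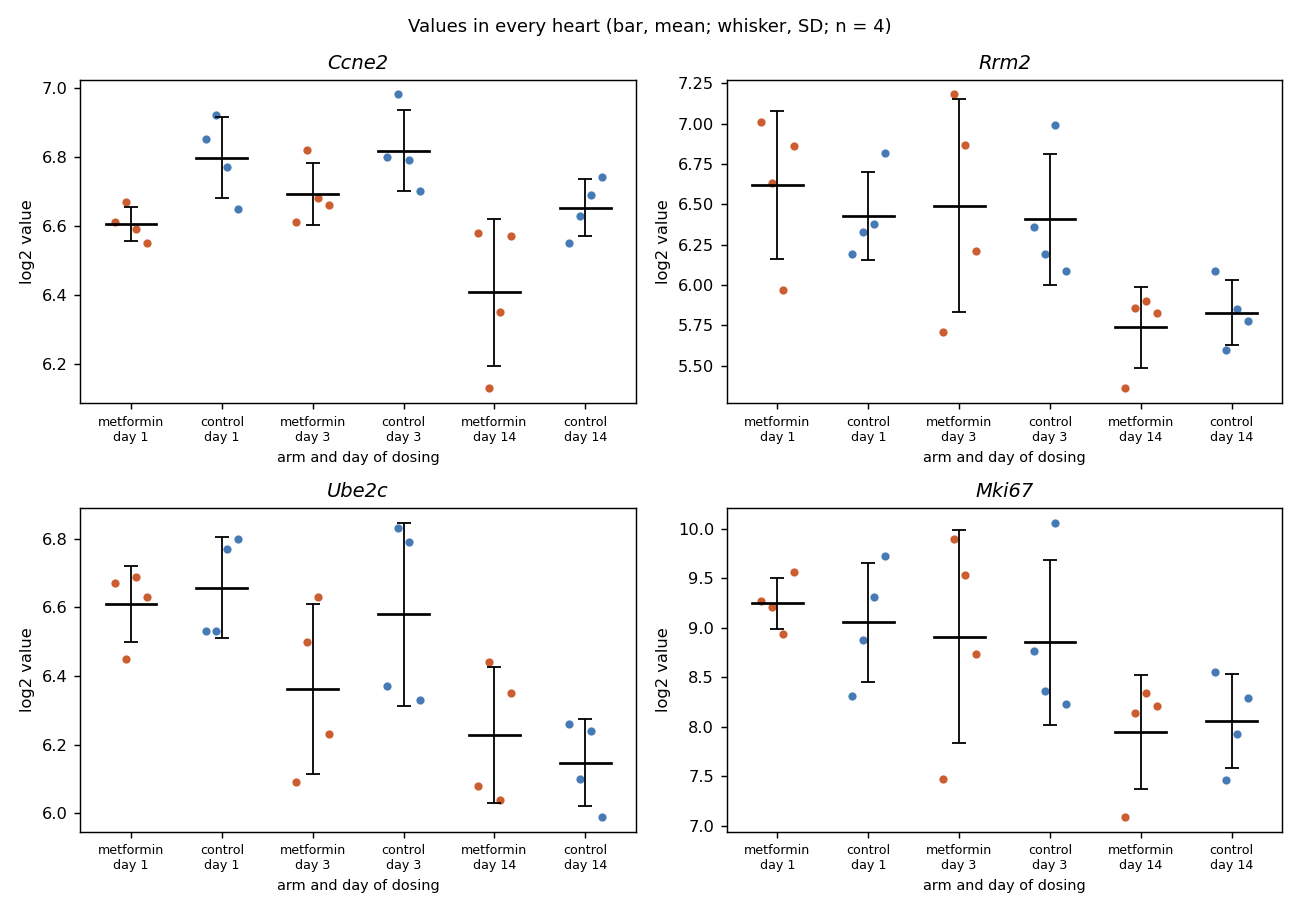
Log2 values of Ccne2, Rrm2, Ube2c and Mki67 in each heart by arm and day of dosing; bars are group means and whiskers SD (n = 4), and the vertical axes do not start at 0. Ube2c and Rrm2 were lower on day 14 than on day 1 in both arms, and Ccne2 averaged lower in metformin than in control hearts on each day.

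Taken arm by arm, 0 of 48 members were called. In metformin hearts, day 14 minus day 1, 24 members were lower at an unadjusted p under 0.05 by limma, 21 G2/M and 3 G1/S genes, against 5.6% of all genes, with 0.405% of all genes called. The days did not overlap for 22 members, against 2.74% of all genes. The median difference was -0.44 for G2/M and -0.07 for G1/S genes, and the smallest adjusted p was 0.135 (Cenpe, -0.71, SE 0.20). In vehicle hearts 17 members were lower at an unadjusted p under 0.05, 16 G2/M and 1 G1/S gene, against 3.64% of all genes, with 0.381% of all genes called. The days did not overlap for 12 members, against 2.5% of all genes. The medians were -0.36 for G2/M and -0.14 for G1/S genes, and the smallest adjusted p was 0.0935 (Ube2c, -0.51, SE 0.13). Over the 3 days of an arm the moderated F test called 0 members in metformin hearts (0.212% of all genes called, 18 members at an unadjusted p under 0.05) and 0 in vehicle hearts (0.162% of all genes, 12 members). The percentages of this test are of genes called after adjustment, and so are no background for its counts at an unadjusted p. A difference of the treatment effect between days was called for 0 of 48 members and for 0% of all genes, with 0 members at an unadjusted p under 0.05 and a smallest p of 0.273 (Ccnb1).

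Hearts differed most among themselves on day 3, where the SD of the mean G2/M level was 0.43 in metformin and 0.32 in control hearts, against 0.11 to 0.22 in the groups of days 1 and 14. Day 3 minus day 1 gave 0 called members with metformin (0.0125% of all genes called, 1 member at an unadjusted p under 0.05), 0 with vehicle (0% called, 0 members) and 0 over both arms (0% called, 1 member). The G2/M medians were -0.20 with metformin and -0.05 with vehicle. Day 14 minus day 3 gave 0 called members with metformin (0.162% of all genes called, 10 members at an unadjusted p under 0.05) and 0 with vehicle (0.0125% called, 11 members). Over both arms 33 members were lower at an unadjusted p under 0.05 by limma, 25 G2/M and 8 G1/S genes. After adjustment 1 member of 48 was called, against 0.362% of all genes. The called member was Tyms, which makes thymidylate, at -0.44 (SE 0.09, adjusted p = 0.0278). Tyms stood at 9.38, 9.48, 9.49 and 9.19 in metformin hearts and at 9.25, 9.30, 9.64 and 9.53 in control hearts on day 14, against 9.77, 9.90, 9.86 and 9.83 in metformin hearts and 9.55, 10.04, 9.99 and 9.85 in control hearts on day 3. The metformin hearts of the days did not overlap, and control replicate 3 of day 14 lay above control replicate 1 of day 3. The call for Tyms was lost under 12 of 29 alternatives, with adjusted p from 0.0154 to 0.117. These comparisons of days share the arrays of each day. Their percentages are of genes called after adjustment. The share of all genes at an unadjusted p under 0.05 is not given beside the member counts.

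The comparison of metformin with control asked whether the drug changes the cell cycle genes. On day 1, 0 of 48 members were called by limma (0% of all genes called), and 1 had an unadjusted p under 0.05, against 1078 of 16031 genes. The G2/M genes had a median difference of 0.12, with 28 of 31 higher under metformin, and the G1/S genes 0.01. The G2/M median was 0.03 without control replicate 1, 0.06 without metformin replicate 4, 0.19 without control replicate 4 and 0.02 with the fibroblast level as a covariate. The hearts of the arms overlapped in their mean G2/M level, which was 0.24 ± 0.11 in metformin and 0.13 ± 0.22 in control hearts (SD, n = 4 each). On day 3, 0 members were called (0.474% of all genes called). An unadjusted p under 0.05 was seen for 1 member, against 1795 of 16031 genes. The medians were -0.02 for G2/M and 0.07 for G1/S genes. The sign of that G2/M median turned with single arrays, and it ran from -0.17 without metformin replicate 2 to 0.17 without metformin replicate 1. On day 14, 0 were called (0.281% of all genes called). An unadjusted p under 0.05 was seen for 1 member, against 2042 of 16031 genes. The medians were -0.01 and 0.00 in the same order. The genes behind these single p-values were the cyclins E, Ccne2 on days 1 and 14 (lower) and Ccne1 on day 3 (higher). On day 1, 9 of 10 fibroblast markers had a higher mean under metformin (median 0.20), and 10 of 11 erythroid markers a lower one (median -0.67). The part of erythroid cells in the day 1 values was not tested.

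Over the mean of the 3 days Ccne2 was the member called. It stood at 6.61, 6.67, 6.59 and 6.55 in metformin hearts, against 6.85, 6.92, 6.77 and 6.65 in control hearts, on day 1. On day 3 it stood at 6.61, 6.82, 6.68 and 6.66 in metformin hearts, against 6.80, 6.98, 6.79 and 6.70 in control hearts. On day 14 it stood at 6.58, 6.13, 6.35 and 6.57 in metformin hearts, against 6.55, 6.63, 6.69 and 6.74 in control hearts. On day 1 metformin replicate 2 alone lay above the lowest control heart, and on day 14 control replicate 1 alone lay under the highest metformin hearts, while on day 3 the arms overlapped more widely. The differences were -0.19 on day 1 (adjusted p = 0.711), -0.12 on day 3 (adjusted p = 0.681) and -0.25 on day 14 (adjusted p = 0.233), and -0.19 over the mean of days (1.14-fold lower, SE 0.05, adjusted p = 0.0377). Under the alternatives the adjusted p ran from 0.0211 to 0.092 and the difference from -0.24 to -0.16. Leaving out a single array ended it for 16 of the 24 arrays. It was also lost with an erythroid marker level as a covariate (adjusted p = 0.092) and without a filter on dim genes (adjusted p = 0.0578).

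Ccne1, the partner gene with the same role, had the opposite sign. On day 3 it stood at 5.21, 5.22, 5.18 and 5.28 in metformin hearts, against 5.13, 4.69, 5.11 and 5.08 in control hearts. The arms did not overlap on that day, which held for 1 of 48 members and for 348 of 16031 genes in this direction. Control replicate 2 stood apart as low, at 4.69. The difference was 0.22 (SE 0.10, adjusted p = 0.399). Over the mean of days it was 0.14 (adjusted p = 0.188). Bub1b, a kinase of the spindle checkpoint, differed by 0.12 (adjusted p = 0.271) and Tk1 by -0.22 (adjusted p = 0.374). All 48 members lay between -0.22 and 0.14 over the mean of days. Mki67, Top2a and Cdk1 differed between the arms by less than the SE on each day, with an SE of 0.45 for Mki67. Erythroid markers had a median of -0.29 over the mean of days, with 10 of 11 lower and 0 called.

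**Figure D4:**
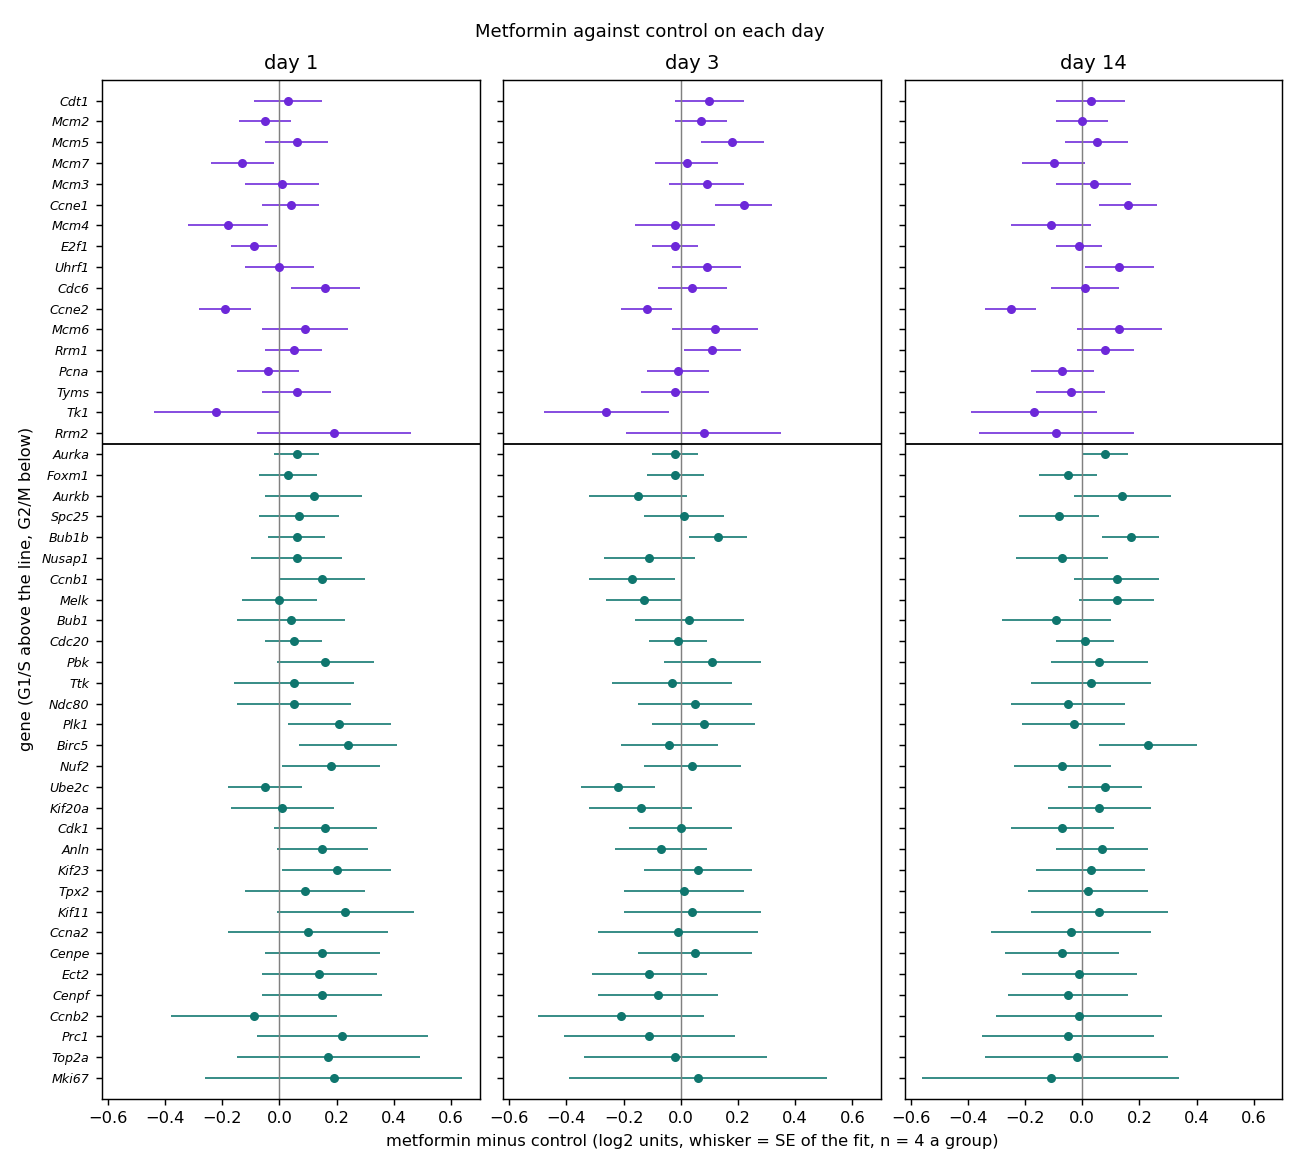
Metformin minus control (log2 units, horizontal axis) for the 48 tested genes on days 1, 3 and 14; whiskers are the SE of the fit (n = 4 a group), with G1/S genes above the line and G2/M genes below it. On day 1, 28 of 31 G2/M genes lay right of 0 and 0 members were called on any day.

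The members varied together from heart to heart within groups. On day 3 metformin replicate 1 was the lowest of its 4 hearts for 30 of 31 G2/M and 15 of 17 G1/S genes, and metformin replicate 2 was the highest for 27 G2/M genes. Among the day 3 controls, replicate 3 was the highest for 29 G2/M and 11 G1/S genes. On day 1 control replicate 4 was the highest for 26 G2/M genes. On day 14 metformin replicate 1 was the lowest for 21 G2/M genes and control replicate 2 the lowest for 25. The fibroblast marker level, taken against its mean over all arrays, was -0.41, 0.20, 0.52 and 0.18 in metformin replicates 1 to 4 of day 3 and 0.53, -0.53, 0.50 and -0.08 in the controls. On day 14 it was -0.76, -0.52, 0.23 and -0.25 in metformin replicates 1 to 4 and 0.16, -0.36, -0.51 and -0.09 in the controls. Metformin replicate 1 was lowest in it on both days. In the day 3 controls this level was highest in replicate 1, at 0.53 against 0.50 in replicate 3. In the day 14 controls it was lowest in replicate 3, at -0.51 against -0.36 in replicate 2. Its part in the spread between hearts was not tested. These are counts within single groups, and the genes of a heart share its RNA and array. The counts were not made over all genes, so a trait of the array cannot be told from one of these genes. For Mki67 the hearts of day 3 stood at 7.47, 9.90, 9.53 and 8.73 with metformin and at 8.76, 8.36, 10.06 and 8.23 with vehicle. The range within each arm on day 3 was wider than the difference between days. On day 3 Ccna2 stood at 6.12, 7.62, 7.24 and 6.46 in metformin hearts and at 6.73, 6.68, 7.51 and 6.57 in control hearts, in the same order of hearts at both ends. For Foxm1 the day 3 values were 4.75, 5.19, 5.10 and 4.99 with metformin and 5.00, 4.91, 5.34 and 4.85 with vehicle, again with metformin replicate 1 lowest and control replicate 3 highest. These hearts were also at the ends for Mcm6, at 5.66, 6.29, 6.47 and 6.14 with metformin and 5.97, 5.81, 6.42 and 5.87 with vehicle on day 3.

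**Figure D5:**
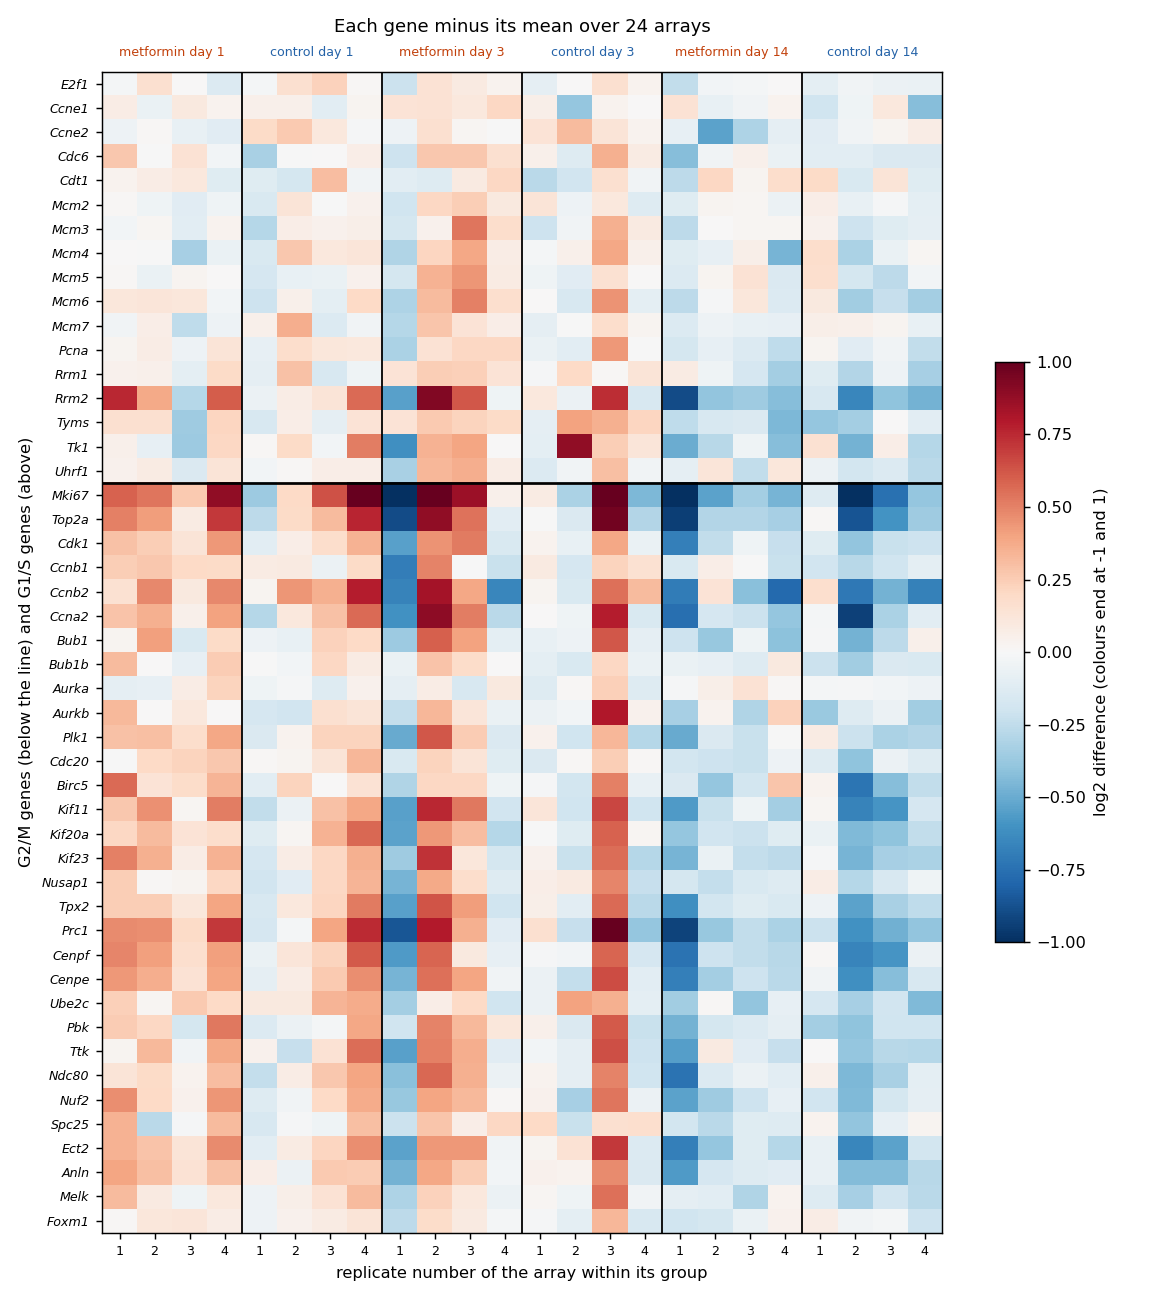
Log2 value of each tested gene minus its mean over the 24 arrays; rows are genes (17 G1/S above the line, 31 G2/M below) and columns are arrays, grouped by day and arm with metformin left of control, and the colours end at -1 and 1. Whole columns of the G2/M block are dark in 1 colour, such as metformin replicate 1 (low) and control replicate 3 (high) of day 3.

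Markers of other cells were read in the same hearts. Between day 14 and day 1 over both arms, 7 of 10 fibroblast markers had a lower mean, with a median of -0.30, and Col1a1 and Col3a1, collagen chains, fell by 1.07 and 0.91 (differences -1.07 and -0.91, adjusted p = 0.0264 and 0.0234). The mean level of that list ran from 11.06 to 12.06 in metformin hearts and from 11.31 to 11.98 in control hearts on day 14, and from 11.93 to 12.39 in metformin hearts and 11.66 to 12.29 in control hearts on day 1. With this level as a covariate 0 of 48 members were called and the G2/M median was -0.27. The difference was then -0.45 for Prc1, -0.36 for Cenpe and -0.43 for Ube2c. Cardiomyocyte markers, taken against their mean over all arrays, averaged 0.15 in metformin and 0.10 in control hearts on day 14. On day 1 they averaged -0.08 and -0.02 in the same order. Macrophage markers averaged 0.03 and -0.04 on day 14, and 0.04 and 0 on day 1, in that order of arms. T and natural killer cell markers averaged 0.04 and 0.02 on day 14, and 0 and 0.01 on day 1. Pericyte and adipocyte lists averaged lower on day 14 in both arms, and neutrophil and B cell lists did so in control hearts. Endothelial markers had a median of -0.34 with 8 of 9 tested members lower and 0 called, and erythroid markers one of -0.36 with 11 of 11 lower and 0 called. With the erythroid level as a covariate 2 of 48 members were called, and the differences were -0.77 for Prc1, -0.57 for Cenpe and -0.58 for Cenpf. Skeletal muscle markers stood high in control replicate 4 of day 1, at a mean of 8.00, against 6.01 to 6.35 in the controls of day 14. Without that array and control replicate 2 of day 3, which was high in erythroid markers, 3 of 48 members were called.

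The count of 9 also moved with single arrays. It was 3 without control replicate 4 of day 1, control replicate 2 or 3 of day 14, or metformin replicate 1 of day 14, and 15 without control replicate 1 of day 1. It was 22 without metformin replicate 1 and control replicate 3 of day 3, the hearts at the ends of that day, which enter this comparison only through the spread. These 2 hearts were picked by the values of these same genes, so leaving them out lowers the spread by choice. The count was 1 with arrays centred on their medians, where Ube2c was the gene that passed. The differences then were -0.76 for Ccnb2, -0.77 for Prc1 and -0.62 for Cenpf. The direction of all 9 was the same under each of these settings.

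Genes of the same processes outside the 50 were read from lists of 37 replication, 62 mitosis and 40 brake and G1 regulator genes that were tested. Between day 14 and day 1 over both arms, 9 of the 62 mitosis genes fell and 1 rose, with a median of -0.21, against 0.63% of all genes called lower and 2.6% called in all. Kif4a, a chromosome-bound kinesin, differed by -0.42 (adjusted p = 0.0111) and Ckap2, a microtubule-binding protein, by -0.77 (adjusted p = 0.0154), while Zwint, a kinetochore protein, rose by 0.37 (adjusted p = 0.0126). Of the 37 replication genes 0 were called, with a median of -0.04. Lower at an unadjusted p under 0.05 were 6 of the 37, against 6.43% of all genes. Of the 40 regulators 2 rose and 0 fell (5% called, against the same 2.6%), Rbl2, the pocket protein p130 of quiescent cells, by 0.38 (SE 0.07, adjusted p = 0.00331) and Ccng1, cyclin G1, a p53 target, by 0.20 (adjusted p = 0.0248). In metformin against control over the mean of days, 1 of 37 replication genes (2.7%) and 2 of 40 regulators (5%) were called, shares near the 4.42% of all genes. These were Rpa1, a subunit of the single-strand binding protein RPA (-0.27, adjusted p = 0.00668), Rbl2 (-0.22, adjusted p = 0.0199) and Btg1, an antiproliferative gene (-0.23, adjusted p = 0.0322), with 0 of 62 mitosis genes called.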

How the data were processed

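RNA from 24 hearts was measured on 1-colour Affymetrix arrays. Per the submitters' processing notes, the authors used RMA (background correction, quantile normalization and probe summary), and the deposited values are linear intensity values per transcript cluster. The software and its version were not given in the sources used here. Values on the log2 scale had been assumed, so log2 of the deposited intensity was taken first.

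Genes came from GEO's platform annotation, with symbols updated through RefSeq. A total of 23446 of 68842 clusters had 1 symbol, 505 had several and 44891 had none. All named columns mapped to a sample, and 0 were left unmapped. Tests used limma 3.58.1 (lmFit, contrasts and eBayes) in R 4.3.3 over 16031 genes and 6 groups, with statmod 1.5.0 for blocks. The code was tested on simulated data. The labels call the arrays biological replicates.

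The members, gene lists and naming rule were chosen with earlier results of these data known. The rule allowed all members to be named, with array values for up to 6 called members per comparison and for a set of key genes. Fewer are printed in full, a choice made after the values were seen, as were the comparisons over both arms. Alternatives were other normalizations, filters, an offset of 16, blocks, covariates and left-out arrays. Replicate numbers did not pair samples.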

Additional observations from a re-analysis of the deposited data

Results flagged for a closer look

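In each group of 4 hearts the highest and the lowest heart were compared with the others for the 48 tested genes and for both list levels, which made 300 groups. In 23 of them (7.67%) 1 heart stood apart, with a gap to its nearest neighbour that took up most of the range of the group (past Dixon's critical value). Chance gives about 1 in 20 groups, and genes of 1 heart are not independent.

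Metformin replicate 1 of day 14 held 10 of the 23 and was low in each. Its log2 values were 4.68 for E2f1, 5.55 for Mcm3, 5.36 for Rrm2, 7.09 for Mki67, 6.09 for Top2a, 6.09 for Tpx2, 4.80 for Cenpf, 5.19 for Ndc80 and 5.34 for Anln, and its G2/M list level was -0.49. Control replicate 3 of day 3 held 5 and was high in each, at 8.21 for Mcm4, 7.51 for Ccna2, 7.01 for Bub1, 5.73 for Aurkb and 5.70 for Melk.

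The other hearts were all low. Metformin replicate 3 of day 1 stood apart for Tyms (9.28) and in its G1/S list level (-0.10), and metformin replicate 4 of day 1 for Mcm6 (5.94). Metformin replicate 1 of day 3 stood apart for Pcna (10.19). Control replicate 2 of day 3 stood apart for Ccne1 (4.69) and Spc25 (4.95), control replicate 3 of day 1 for Ccne1 (4.97) and control replicate 1 of day 1 for Mcm3 (5.53).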

How the results depend on the processing

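Over 794 alternative values for 42 counts and medians, 743 stayed within the tolerance and 51 moved past it. The tolerance was 1.5 times for a count and, for a median, 1 SD of the list level between hearts of a group, which is wide on day 3: leaving out 1 array moved the G2/M median of metformin against control from -0.17 to 0.17 on day 3 and from 0.03 to 0.19 on day 1, within it. For 20 single-gene results and 522 alternatives, 403 kept their side of the threshold, 118 lost the call, 1 gained it (Cenpe, metformin day 14 minus day 1, adjusted p = 0.0337 without the 2 arrays that stood apart on day 3) and 0 reversed. The cause of these shifts was not tested. The 2 arrays that stood apart on day 3 were picked by the values of these same genes, so settings without them are no independent check. The count of 9 for day 14 minus day 1 over both arms was 1 with arrays centred, 0 with the fibroblast level and 2 with the erythroid level as a covariate, 22 without the 2 arrays that stood apart and 3 without the 2 arrays high in muscle or blood markers. Leaving out 1 array gave 3 to 15. The G2/M median there was -0.27 with the fibroblast level. Metformin against control over the mean of days called 0 in place of 1 under a second quantile normalization, cyclic loess, no filter, the erythroid level, the 2 arrays left out and the replicate block within day, and 0 to 1 with 1 array left out. Day 14 minus day 3 over both arms called 0 in place of 1 with centring, with the fibroblast level and without the 2 arrays, and 0 to 4 with 1 array left out (4 without metformin replicate 1 of day 3). Metformin day 14 minus day 1 called 2 without the 2 arrays. Its G1/S median was -0.15 under the stricter filter and its G2/M median -0.23 with the fibroblast level. The vehicle G1/S median was -0.05 with the erythroid level. The G1/S median of metformin against control on day 14 was -0.10 with centring, which moved all genes by -0.10. Same-numbered arrays correlated between -0.148 and 0.11 in their deviations, and 3 of 12 correlated best with their own number. With the replicate block within arm the count over both arms was 11 for day 14 minus day 1. Few arrays and low signal limit the dimmest genes.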
